A study of Mus musculus with 16 samples.

Results

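Stress cardiokines are proteins that a loaded or injured heart secretes, or receptors that answer them. The 10 genes described here, of 22372 genes in the table, were chosen by name and looked up by their Ensembl identifiers: Gdf15, Fgf21, Mstn, Gdf11, Fst, Fstl1, Fstl3, Ctf1, Il33 and Il1rl1. They were measured by poly(A) RNA-seq in ventricle tissue from 16 C57BL/6J mice, with 4 libraries in each of 4 groups. No transgene or deletion was carried by any group, the study's methods describe the animals as male, and all mice were 10 to 12 weeks old when the experiment began. Transverse aortic constriction (TAC), a suture around the aortic arch that loads the left ventricle with pressure, was compared with a sham operation without the suture. Each operation was followed by vehicle or by THZ1, a covalent inhibitor of the transcription kinases CDK7, CDK12 and CDK13, and the groups are named Sham-Veh and Sham-THZ1 for the sham operation and TAC-Veh and TAC-THZ1 for TAC. THZ1 was injected into the peritoneum, by the labels, at 10 mg/kg b.i.d. from day 1 to day 60 after surgery. Nothing in the labels ties libraries to litters or batches, so p-values measure the spread between these mice. Gdf15 was picked with its response in TAC already known from these libraries, so every contrast of Gdf15 that uses TAC libraries is given as a description with no test. The other 9 genes were also listed with earlier results of these libraries known, so their p-values are not independent of that choice.

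The members belong to 4 signalling systems. Gdf15 and Fgf21 are hormones of cellular stress whose genes are well known targets of the integrated stress response, in which ATF4 and its partners bind C/EBP-ATF elements, and they act on distant organs through GFRAL with RET and through FGF receptors with beta-Klotho. Mstn (myostatin) and Gdf11 are close relatives that restrain muscle growth through activin receptors and SMAD2 and SMAD3, and Fst (follistatin) and Fstl3 bind and block these ligands and activins. Fstl1 shares the follistatin-like domain but is a secreted glycoprotein of connective tissue and does not act chiefly as an activin trap. Ctf1 (cardiotrophin-1) is an interleukin-6 family cytokine that drives cardiomyocyte growth through gp130 and the LIF receptor, and Il33 is an alarmin whose receptor ST2 is encoded by Il1rl1. The soluble form of ST2 is a decoy for interleukin-33 and, like GDF15, is measured in blood as a marker of heart failure.

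The members lie at the following places in mm9. Gdf15 (ENSMUSG00000038508) spans chr8:73153292-73156355 on the minus strand and Fgf21 chr7:52869277-52870860 on the minus strand. Mstn spans chr1:53118507-53124923 on the plus strand and Gdf11 chr10:128319351-128328774 on the minus strand. Of the follistatin family, Fst spans chr13:115242470-115249159 (minus), Fstl1 chr16:37776959-37836600 (plus) and Fstl3 chr10:79240017-79245375 (plus). Of the cytokines, Ctf1 spans chr7:134856250-134861699 (plus), Il33 chr19:29999604-30035194 (plus) and the receptor gene Il1rl1 chr1:40486415-40522260 (plus). The counts cover the exons of each gene, 930 bases for Fgf21 and up to 6894 for Il1rl1.

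Upstream sequence is shown for the hormone pair known as stress response targets and for 2 members that passed the test in TAC in opposite directions, Fstl3 and Ctf1, so that their start regions can be compared. Each is the 250 bases before the gene's start in RefSeq (GRCm38.p6), matched to 1 place in mm9, written 5′ to 3′ on the gene's strand. Capitals mark matches to 4 motifs searched on both strands: the C/EBP-ATF element TGATGNAA, the cyclic AMP element TGACGTCA, the AP-1 site TGANTCA and the TATA box TATAAA, which do not share letters at any match printed.
Gdf15 (chr8:73156356-73156605, minus strand): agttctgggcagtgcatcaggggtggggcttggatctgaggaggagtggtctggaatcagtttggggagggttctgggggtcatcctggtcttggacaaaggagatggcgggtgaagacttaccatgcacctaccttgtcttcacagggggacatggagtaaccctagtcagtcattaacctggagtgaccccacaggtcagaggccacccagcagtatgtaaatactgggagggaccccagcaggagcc
Fgf21 (chr7:52870861-52871110, minus strand): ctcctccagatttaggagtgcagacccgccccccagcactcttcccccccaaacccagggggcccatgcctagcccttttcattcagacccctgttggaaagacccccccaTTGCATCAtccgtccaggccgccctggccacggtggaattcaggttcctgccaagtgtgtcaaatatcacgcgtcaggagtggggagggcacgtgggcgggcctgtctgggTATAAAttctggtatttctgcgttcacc
Fstl3 (chr10:79239769-79240018, plus strand): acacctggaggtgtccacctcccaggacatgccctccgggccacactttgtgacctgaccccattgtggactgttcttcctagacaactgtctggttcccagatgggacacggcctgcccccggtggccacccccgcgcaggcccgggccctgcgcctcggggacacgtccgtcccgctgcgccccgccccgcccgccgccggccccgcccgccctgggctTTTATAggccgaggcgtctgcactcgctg
Ctf1 (chr7:134855967-134856216, plus strand): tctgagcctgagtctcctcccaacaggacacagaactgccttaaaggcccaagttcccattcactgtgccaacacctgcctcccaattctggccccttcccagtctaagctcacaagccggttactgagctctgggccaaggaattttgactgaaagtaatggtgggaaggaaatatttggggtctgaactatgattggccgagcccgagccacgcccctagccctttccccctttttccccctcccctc
The Fgf21 window holds a C/EBP-ATF element in reverse orientation, 139 to 132 bases before the start, and a TATA box 28 to 23 bases before it. The Fstl3 window holds a TATA box in reverse orientation, 29 to 24 bases before the start, and its last 2 bases are exon in the older annotation. None of the 4 motifs has an exact match in the Gdf15 or the Ctf1 window, and inexact matches were not searched. Gdf15 has a further RefSeq start, downstream of chr8:73155995-73156244. That window is not printed and holds no exact match either, and 196 of its 250 bases are exon in the older annotation. Of 32536 RefSeq promoter windows of this length, 3.396% hold the C/EBP-ATF element, 1.555% the cyclic AMP element, 6.728% the AP-1 site and 12.31% the TATA box. Il1rl1 has a pair of RefSeq starts, downstream of chr1:40486165-40486414 and chr1:40496224-40496473, and the gene-level count adds the transcripts of both.

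Values are normalized counts, reads per gene divided by a size factor for each library, and 1 normalized count was about 1 read. Libraries held 21.4 to 35.8 M reads in the genes of the table, of which 33.2 to 44.7% were mitochondrial transcripts. Cardiomyocyte markers were abundant in all libraries, with the sum over 6 genes between 586236 and 1216110 normalized counts. The sums of other tissues stayed far below, at no more than 71.6 over 8 skeletal muscle markers, 82.3 over 4 atrial markers and 29.9 over 5 adipocyte markers. In bulk tissue, fewer cells of a type and less RNA per cell cannot be told apart. Changes are log2 fold changes of normalized count + 1 from limma, fitted over all 16 libraries and 13331 genes, with Benjamini-Hochberg adjusted p over all of these genes and a call at an adjusted p under 0.05.

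Levels can be compared between genes only per length. Averaged over the 16 libraries, Fstl1 stood at 1048 normalized counts per kb of exon, Fstl3 at 82.0, Ctf1 at 79.1, Gdf15 at 59.6, Il33 at 50.1, Gdf11 at 11.8, Il1rl1 at 5.66, Fst at 5.64, Mstn at 3.07 and Fgf21 at 1.11. Fstl1 was the most abundant in each of the 4 groups. The place of Gdf15 in this order depended on condition, with group means of 9.71 per kb in Sham-Veh and 201 in TAC-Veh. In sham hearts the Gdf15 mean was below that of Gdf11, at 13.6 per kb, and in TAC-Veh it exceeded that of Fstl3, at 186 per kb, although the ranges of the TAC-Veh libraries overlapped (90.9 to 352 for Gdf15 and 108 to 291 for Fstl3). Of the 10 members, 9 passed the filter of at least 10 normalized counts in at least 4 libraries, Mstn in exactly 4, and Fgf21 did not reach 10 in any library.

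**Figure D1:**
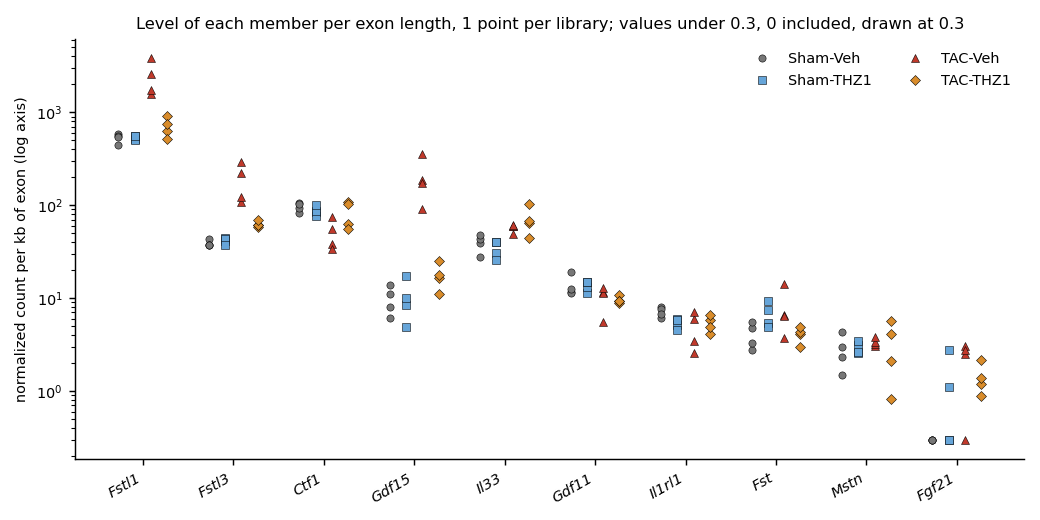
Level of each member in every library, as normalized counts per kb of exon on a log axis, with genes ordered by mean and groups by colour and symbol. Fstl1 lies above the other members in every group, Gdf15 spans the widest range between groups, and Fgf21, Mstn, Fst and Il1rl1 lie at the bottom.

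Gdf15 separated the vehicle-treated TAC hearts from the other 3 groups. The values in TAC-Veh were 344, 652, 168 and 325 normalized counts, against 25.5, 11.2, 20.3 and 14.9 in Sham-Veh. With THZ1 they were 45.9, 30.6, 20.3 and 32.7 after TAC and 32.2, 15.6, 18.7 and 9.12 after sham. Each TAC-Veh library lay above every library of the other groups, with the lowest at 168 and the highest of the others at 45.9. The TAC-THZ1 libraries overlapped the sham libraries. Group means were 372 ± 202 (SD, n = 4, as for all means below) in TAC-Veh, 18.0 ± 6.23 in Sham-Veh, 32.4 ± 10.5 in TAC-THZ1 and 18.9 ± 9.73 in Sham-THZ1, so that the TAC-Veh mean was 20.7 times that of Sham-Veh and 11.5 times that of TAC-THZ1. On the log2 scale the fitted difference was 4.20 (SE 0.39) for TAC-Veh against Sham-Veh, -3.38 (SE 0.39) for TAC-THZ1 against TAC-Veh and 0.82 (SE 0.39, 95% interval -0.01 to 1.65) for TAC-THZ1 against Sham-THZ1, all given with no test.

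In sham hearts THZ1 left Gdf15 at a log2 change of 0.00 (limma adjusted p = 0.9997), with a 95% interval of -0.83 to 0.83. The fit shares 1 spread over all 16 libraries, TAC included, and gave the same SE of 0.39 here as after TAC. The interval and p are therefore not free of the values behind the choice of Gdf15. That interval spans changes of somewhat less than 2-fold in either direction, and the 68 to 74 reads summed over a sham group set its width in part. Within TAC-Veh replicate 2 was highest for Gdf15 and Fstl1 and replicate 1 for Fstl3, and replicate 3 was lowest for Gdf15, Fstl1 and Fstl3.

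Fgf21 was close to absent. It had 18 reads in all 16 libraries together, of 456 M. No read fell in any Sham-Veh library, which allows a mean of up to 0.716 normalized counts for that group (3 reads over the group, counting error only). The Sham-THZ1 libraries held 0, 3, 0 and 1 reads, the TAC-Veh libraries 2, 4, 0 and 3, and the TAC-THZ1 libraries 1, 1, 1 and 2. The TAC-Veh mean of 1.94 ± 1.31 normalized counts was 2.71 times the limit of 3 reads over the Sham-Veh group. That ratio leaves out the counting error of the 9 TAC-Veh reads and is not a lower bound. Fitted without a filter over 17888 genes, the TAC-Veh against Sham-Veh log2 difference was 1.38 (SE 0.43, limma adjusted p = 0.0207), a value that rests on 9 reads and depends on the pseudocount, and none of the other contrasts reached an adjusted p under 0.05 (0.410 to 0.850). Gdf15 and Fgf21, both known targets of ATF4, were thus at very different levels in TAC-Veh, 201 ± 109 against 2.09 ± 1.41 normalized counts per kb.

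**Figure D2:**
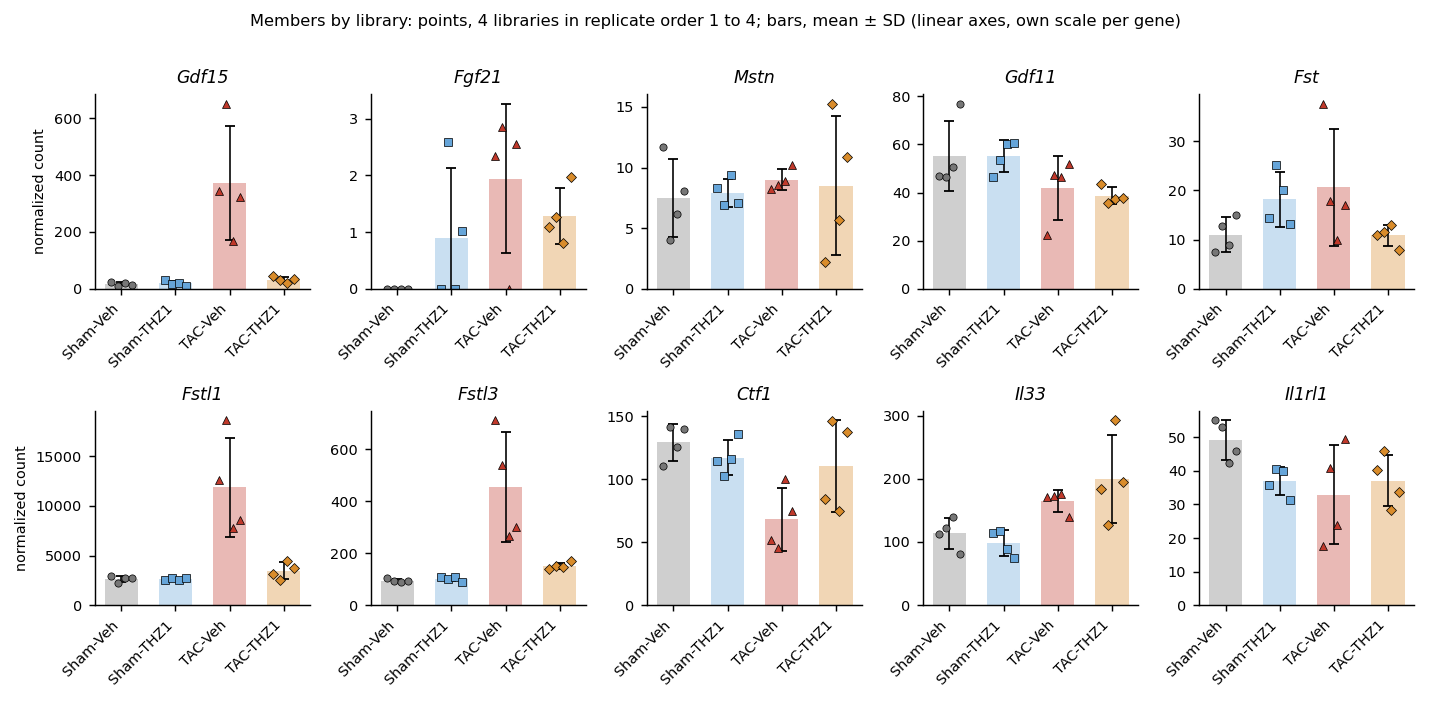
Normalized counts of the 10 members by group. Points are the 4 libraries of a group in replicate order, bars the mean and whiskers the SD, each panel with its own linear axis from 0. Gdf15, Fstl1 and Fstl3 stand out in TAC-Veh alone, Ctf1 is lowest there, Il33 is high in both TAC groups, and Fgf21 stays under 3 normalized counts.

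The receptor partners of the hormone pair were measured in the same hearts. Gfral, the receptor of GDF15 known from the hindbrain, had no read in any of the 16 libraries, which allows a mean of up to 0.184 normalized counts (3 reads over all libraries). Klb, which encodes beta-Klotho, had 1 read in all. Of the 7 receptor and co-receptor genes listed, 4 passed the filter, of which 3 rose and 1 fell with TAC and 2 fell with THZ1 in TAC. Over all genes tested, 45% were called with TAC (21.4% higher and 23.6% lower) and 29.4% with THZ1 in TAC (15.1% higher and 14.2% lower). These shares stand beside every gene list below. Ret, the signalling partner of GFRAL, was lower in TAC-Veh, at 92.4 ± 10.3 normalized counts, than in Sham-Veh, at 264 ± 32.9 (log2 change -1.50, SE 0.13, adjusted p = 5.05e-07), and stood at 113 ± 20.6 in TAC-THZ1. With THZ1 in TAC its change of 0.28 did not pass the test (adjusted p = 0.117), and against Sham-THZ1 it was lower by a log2 change of -1.16 (adjusted p = 1.34e-04). Fgfr1, a receptor of many fibroblast growth factors, rose from 935 ± 41.9 to 1521 ± 276 with TAC (0.68, SE 0.10) and fell to 946 ± 65.6 with THZ1 (-0.67, adjusted p = 2.93e-04). Fgfr3 changed likewise by 0.64 and by -0.55 (adjusted p = 0.0110 and 0.0351), and Fgfr2, at 6.83 ± 1.62 normalized counts in Sham-Veh, rose by 1.21 with TAC (adjusted p = 0.00124) and had -0.52 with THZ1 (adjusted p = 0.139).

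Genes known to lie upstream of Gdf15 and Fgf21, or to share their control, were called about as often as all genes. Of 14 listed and tested, 5 rose, 2 fell and 7 did not pass the test with TAC, where 45% of all genes were called. With THZ1 in TAC 1 rose, 3 fell and 10 did not pass, beside 29.4% of all genes called. Atf3, a stress-induced factor, was highest in TAC-Veh at 379 ± 213 normalized counts, against 69.7 ± 17.5 in Sham-Veh and 125 ± 34.3 in TAC-THZ1. Its changes were 2.29 with TAC (SE 0.31, adjusted p = 2.96e-05) and -1.47 with THZ1 (SE 0.31, adjusted p = 0.00279). Atf4, the central factor of the integrated stress response, rose by 0.46 with TAC (adjusted p = 2.15e-04) and had -0.08 with THZ1 (adjusted p = 0.481). Ppp1r15a, which encodes the stress phosphatase subunit GADD34, rose by 0.83 and fell by 0.64 on the log2 scale (adjusted p = 8.43e-04 and 0.00990). Ppara, a lipid-sensing nuclear receptor known to induce Fgf21 in liver, fell by 0.67 with TAC (adjusted p = 0.00244) and had 0.38 with THZ1 (adjusted p = 0.0801). The median change over the 14 genes was 0.28 with TAC and -0.07 with THZ1, beside medians between -0.01 and 0.02 over all genes tested.

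Mstn and Gdf11, the activin-type ligands among the members, did not pass the test in any of the 5 contrasts of the main fit. Mstn was read 2 to 12 times per library, and its group means of normalized counts were 7.48 ± 3.24 (Sham-Veh), 8.99 ± 0.87 (TAC-Veh), 7.93 ± 1.14 (Sham-THZ1) and 8.51 ± 5.76 (TAC-THZ1), all overlapping. At this depth its interval for TAC against sham under vehicle ran from -0.58 to 1.21 on the log2 scale, which leaves room for a change of more than 2-fold. Myostatin is best known from skeletal muscle, whose 8 markers summed to 40.6 to 71.6 normalized counts per library, with Myh4 at 0 in TAC-Veh.

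Gdf11 was read 19 to 67 times per library. Its normalized counts under vehicle were 46.7, 46.5, 50.4 and 77.0 after sham surgery and 22.3, 47.2, 46.6 and 52.0 after TAC. Under THZ1 they were 46.5, 53.6, 60.1 and 60.8 after sham surgery and 43.7, 35.6, 37.4 and 37.6 after TAC. All 4 TAC-THZ1 libraries lay below all 4 Sham-THZ1 libraries, while the vehicle groups overlapped. Groups without overlap between TAC-THZ1 and Sham-THZ1 were found for 33.4% of all genes, and among the members for Gdf11, Fst, Fstl3 and Il33. The TAC-THZ1 against Sham-THZ1 difference was -0.50 (SE 0.23, adjusted p = 0.117), and that of TAC-Veh against Sham-Veh -0.42 (SE 0.23, adjusted p = 0.147). The former passed with the THZ1 groups fitted alone (adjusted p = 0.0230) and with array weights (0.0369). Without TAC-Veh replicate 1, the low library at 22.3, the TAC-Veh against Sham-Veh value was -0.15, and the TAC-THZ1 against Sham-THZ1 difference, which does not use that library except for the shared spread, had an adjusted p of 0.0259.

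Of the follistatin family, Fstl1 and Fstl3 were called with TAC and with THZ1 in TAC, and Fst was not. Over the 8 members other than Gdf15 that were tested, 5 were called with TAC under vehicle, 3 higher and 2 lower, where 45% of all genes tested were called (21.4% higher and 23.6% lower). With THZ1 in TAC 3 of the 8 were called, 1 higher and 2 lower, beside 29.4% of all genes (15.1% higher and 14.2% lower). With the fold thresholds of the study added, a log2 change over 1 for TAC and over 0.89 for THZ1 in TAC, 2 of the 8 were higher with TAC and 2 were lower with THZ1, both times Fstl1 and Fstl3. Of all genes, 4.64% were higher and 3.37% lower with TAC by that rule, and 1.85% higher and 3.62% lower with THZ1 in TAC. The median change of the 8 was 0.43 with TAC and -0.18 with THZ1 in TAC. Groups did not overlap with TAC for Gdf15, Fstl1, Fstl3, Ctf1 and Il33, as for 37.3% of all genes, and with THZ1 in TAC for Gdf15, Fstl1 and Fstl3, as for 20.0% of all genes.

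Fstl1 had 12565, 18654, 7750.2 and 8556 normalized counts in TAC-Veh, where Sham-Veh had 2901, 2196, 2698 and 2692. With THZ1 it had 3117, 2544, 4497 and 3720.0 after TAC and 2558, 2703, 2489.6 and 2719 after sham surgery. Every TAC-Veh library exceeded every other library, and the TAC-THZ1 libraries overlapped both sham groups, 3 of the 4 lying above all Sham-THZ1 libraries. Fstl1 rose with TAC by 2.10 on the log2 scale (SE 0.21, adjusted p = 2.10e-06), a 4.28-fold change, and fell with THZ1 in TAC by 1.72 (SE 0.21, adjusted p = 7.66e-05). Between TAC-THZ1 and Sham-THZ1 a difference of 0.38 remained that did not pass the test (95% interval -0.08 to 0.83, adjusted p = 0.210).

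Fstl3 had 712, 539.8, 265 and 302 normalized counts in TAC-Veh against 105, 92.2, 90.2 and 91.9 in Sham-Veh. With THZ1 it had 141, 149, 148 and 169 after TAC against 109, 100.3, 107 and 90.2 after sham surgery. The TAC-Veh libraries lay above all others, and the TAC-THZ1 libraries lay between them and the sham libraries with no overlap on either side. The change with TAC was 2.13 (SE 0.22, adjusted p = 2.41e-06) and with THZ1 in TAC -1.46 (SE 0.22, adjusted p = 2.82e-04). The remaining difference between TAC-THZ1 and Sham-THZ1 was 0.58 (95% interval 0.11 to 1.05, adjusted p = 0.0675), which passed at 0.00182 when those groups were fitted alone. Fstl3 shares 1157 bases with Prss57 on the other strand, and the study counted reads by strand.

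Fst itself was low, with 7 to 32 reads per library. Under vehicle it had 7.43, 12.8, 8.84 and 14.9 normalized counts after sham surgery and 37.6, 17.9, 9.91 and 17.0 after TAC. Under THZ1 it had 14.3, 25.1, 20.0 and 13.2 after sham surgery and 10.9, 11.5, 13.0 and 7.92 after TAC. Groups overlapped except under THZ1, where all TAC libraries lay below all sham libraries by a narrow gap, 13.0 against 13.2. None of its changes passed the test: 0.74 with TAC (SE 0.34, adjusted p = 0.0892), -0.74 with THZ1 in TAC (SE 0.34, adjusted p = 0.117) and 0.68 with THZ1 in sham (SE 0.34, adjusted p = 0.760). Leaving out TAC-Veh replicate 3, at 9.91, moved the first to 1.02 (adjusted p = 0.0207) and the second to -1.02 (adjusted p = 0.0276), and leaving out replicate 1, the highest library at 37.6, moved them to 0.41 and -0.41 (adjusted p = 0.305 and 0.345). For THZ1 in sham the adjusted p was 0.102 to 0.841 over the other settings. Between TAC-THZ1 and Sham-THZ1 the Fst difference was -0.67 (SE 0.34, adjusted p = 0.164), with an adjusted p of 0.0451 under array weights.

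**Figure D3:**
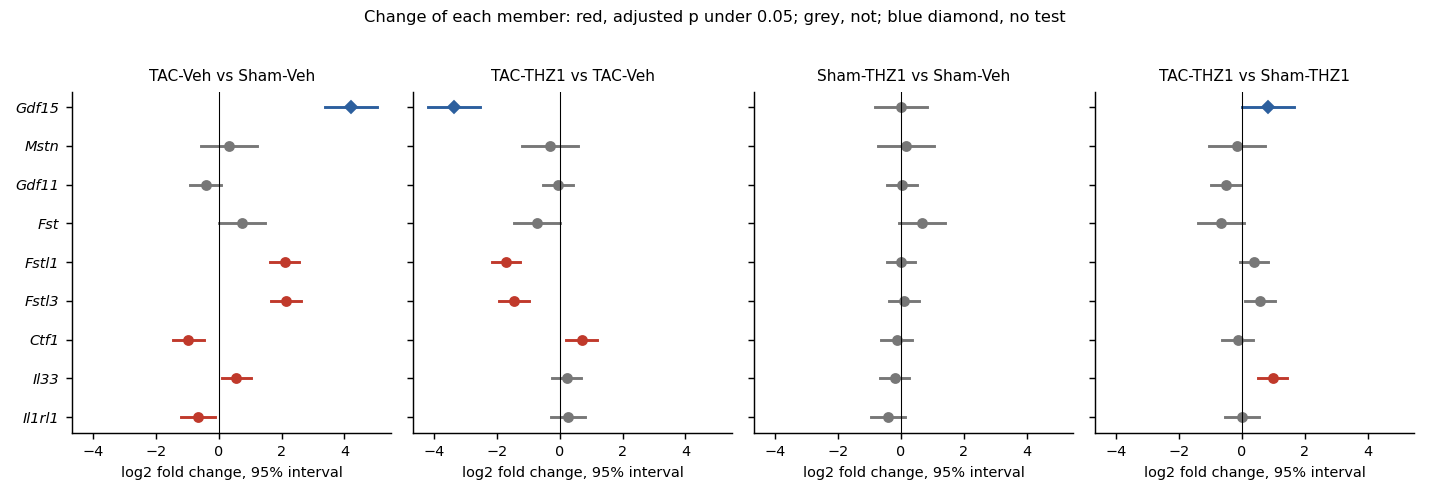
Log2 fold changes of the 9 members past the filter in 4 contrasts, with 95% intervals. Red marks an adjusted p under 0.05, grey none, and blue diamonds the Gdf15 values that have no test. Gdf15, Fstl1 and Fstl3 lie to the right with TAC and to the left with THZ1 in TAC, Ctf1 does the reverse, and all intervals for THZ1 in sham cross 0.

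For Fstl1 and Fstl3, THZ1 acted differently after TAC than after sham surgery. The interaction, its effect in TAC minus its effect in sham, was -1.72 for Fstl1 (SE 0.30, adjusted p = 0.00394) and -1.56 for Fstl3 (SE 0.31, adjusted p = 0.00793), so 2 of 8 members were called, both lower, where 10% of all genes were (4.4% higher and 5.62% lower). That all-gene count of 1336 had its highest value over the 16 fits without 1 library at 2479, with TAC-Veh replicate 3 left out, and its lowest at 690, with TAC-THZ1 replicate 2 left out. The interaction was -3.38 (SE 0.56) for Gdf15, with no test, -1.41 for Fst (adjusted p = 0.0730) and 0.84 for Ctf1 (adjusted p = 0.115). In sham hearts THZ1 itself called none of the 8, beside 0.0675% of all genes (0.0225% higher and 0.045% lower), and none of the 8 had an unadjusted p under 0.05 (limma). The count was also 0 by edgeR, by DESeq2, with array weights and with the sham groups fitted alone. The main fit shares its spread with the TAC libraries. Over all genes it called 9 in sham, against 465 with the sham groups fitted alone and 513 with array weights. The widest of the 95% intervals in sham was that of Mstn, -0.75 to 1.04, and the narrowest that of Fstl1, -0.45 to 0.46.

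Other ligands of the activin and TGF-beta family were counted from a list. Of 5 listed, 4 passed the filter, and with TAC 3 rose and none fell, while with THZ1 in TAC 3 fell and 1 rose. Of all genes, 45% and 29.4% were called in these contrasts. Inhba, the subunit of activin A, was at 32.6 ± 19.0 normalized counts in TAC-Veh, against 9.99 ± 2.33 in Sham-Veh and 12.2 ± 5.38 in TAC-THZ1 (changes 1.50 and -1.29, adjusted p = 0.00205 and 0.00988). Inhbb, the subunit of activin B, was at 152 ± 91.4, 57.4 ± 2.68 and 69.5 ± 17.0 in the same order (1.20 and -0.96, adjusted p = 0.00436 and 0.0263). Tgfb1 rose by 0.42 and fell by 0.40 on the log2 scale, and Inha, the inhibin alpha subunit, had -0.36 with TAC (adjusted p = 0.0520) and rose by 0.44 with THZ1 (adjusted p = 0.0322).

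Receptors and antagonists did not move as 1 block. Among 5 tested receptors, Tgfbr1 and Tgfbr2 rose by 0.74 and 0.53 with TAC and fell by 0.80 and 0.43 with THZ1 in TAC. Acvr2a and Acvr1b, which receive myostatin and Gdf11, fell by 0.23 and 0.33 with TAC (adjusted p = 0.0239 and 0.00560) and had 0.02 and 0.15 with THZ1 (adjusted p = 0.893 and 0.222), and Acvr2b did not pass in either contrast (-0.71 and -0.47). Of the 4 tested antagonists outside the members, Fbn1, Dcn and Nog rose with TAC, by 1.56, 1.07 and 1.38. Fbn1 and Dcn, matrix proteins that hold ligands of this family, fell with THZ1 in TAC (-2.16 and -0.56, adjusted p = 2.94e-05 and 0.00273), and Nog had -0.83 (adjusted p = 0.116). Wfikkn2, a secreted inhibitor of myostatin and Gdf11, did the reverse, with a fall of 0.63 and a rise of 0.54 (adjusted p = 0.00231 and 0.0114).

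Of 6 proteases that cut the myostatin and Gdf11 precursors, 2 rose and 2 fell with TAC, where 45% of all genes were called. Pcsk5 rose by 1.05 and fell by 0.91 with THZ1 in TAC (adjusted p = 8.74e-05 and 9.23e-04), and Bmp1, which frees the ligands from their propeptides, rose by 0.44 and fell by 0.41. Tll2, a relative of Bmp1, had 4.37 ± 3.60 normalized counts in TAC-Veh, against 32.1 ± 3.33 in Sham-Veh and 16.3 ± 8.41 in TAC-THZ1 (-3.03 and 1.95, adjusted p = 2.45e-04 and 0.0114), and Furin fell by 0.30 with TAC. Of 6 SMAD genes and feedback genes, Skil rose by 0.57 with TAC and fell by 0.65 with THZ1 (adjusted p = 0.00594 and 0.00512), and Smad3 fell by 0.44 with TAC (adjusted p = 0.00900). The other 4 did not pass with TAC.

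Ctf1 moved opposite to Fstl1 and Fstl3. Its normalized counts after TAC were 51.7, 45.8, 100.1 and 75.0 with vehicle, against 110.3, 142, 126 and 140.2 in Sham-Veh, with no overlap. With THZ1 they were 84.1, 146, 74.9 and 138 after TAC and 115, 103, 116 and 136 after sham surgery. Of the TAC-THZ1 hearts, 2 lay within the range of TAC-Veh and 2 above every Sham-THZ1 heart. Ctf1 fell with TAC by 0.98 on the log2 scale (SE 0.24, adjusted p = 0.00307), a 1.97-fold change, and rose with THZ1 in TAC by 0.70 (SE 0.24, adjusted p = 0.0339). The rise did not pass the test when TAC-Veh replicate 1 or 2 or TAC-THZ1 replicate 2 or 4 was left out (adjusted p = 0.0797, 0.121, 0.116 and 0.101), nor when the TAC groups were fitted alone (0.145). The gene whose pattern over the 16 libraries was most like that of Ctf1 was mt-Nd5, a mitochondrial subunit of respiratory complex I (Pearson r = 0.96, 0.93 after removing group means, a description over libraries that share depth and scaling). The mitochondrial share of reads was 36.9 ± 4.08% in TAC-Veh, 40.3 ± 0.64% in Sham-Veh and 41.6 ± 3.45% in TAC-THZ1, and its part in the Ctf1 values was not tested.

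Of 7 other ligands of the interleukin-6 family reported here, 3 passed the filter, and these 3 did not pass the test with TAC or with THZ1 in TAC. Clcf1, cardiotrophin-like cytokine, had 0.13 with TAC and -0.12 with THZ1 in TAC (adjusted p = 0.723 and 0.768). Lif, a growth-promoting cytokine of the same receptor, had 0.79 and -1.10 (adjusted p = 0.250 and 0.136), and Cntf had -0.07 and -0.66 (adjusted p = 0.853 and 0.0896). The other 4 ligands, Il6, Il11, Osm and Il27, were under the filter, with Il6, singled out after its values were seen, at 6.93 to 38.6 normalized counts in TAC-Veh and at 4.01 or less in sham hearts.

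The receptors of the family changed in part. Lifr, which with gp130 receives cardiotrophin-1, fell by 0.63 with TAC (SE 0.09, adjusted p = 5.08e-05) and rose by 0.40 with THZ1 in TAC (adjusted p = 0.00451). Il6st, which encodes gp130, had 0.11 and -0.13 (adjusted p = 0.298 and 0.247). Osmr rose by 0.71 with TAC (adjusted p = 0.00642) and had -0.39 with THZ1 (adjusted p = 0.138), and Cntfr fell by 0.67 and rose by 0.91 (adjusted p = 0.0194 and 0.00537). Il6ra and Il11ra1 did not pass in either contrast. Downstream, Jak1 fell by 0.37 with TAC, and Stat3 had 0.19 with TAC (adjusted p = 0.0686) and fell by 0.29 with THZ1 (adjusted p = 0.0126).

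Il33 had its highest group mean in TAC-THZ1, and both TAC groups lay above both sham groups in their means. After TAC it had 170.5, 173, 175 and 139.7 normalized counts with vehicle and 183, 126, 293 and 195 with THZ1. After sham surgery it had 112, 123, 139 and 80.4 with vehicle and 115, 117, 88.2 and 74.0 with THZ1. The TAC-Veh libraries lay above all Sham-Veh libraries by a narrow gap, 139.7 against 139, and the TAC-THZ1 libraries lay above all Sham-THZ1 libraries, 126 against 117. Against Sham-THZ1, TAC-THZ1 was higher by 0.97 (SE 0.22, adjusted p = 0.00585), the 1 call among the 8 members in a contrast where 24.2% of genes were called (11.4% higher and 12.8% lower). Against Sham-Veh, TAC-Veh was higher by 0.55 (SE 0.22, adjusted p = 0.0493). The adjusted p stayed under 0.05 in 8 of 11 other settings and in 5 of 16 fits without 1 library. Among the 8 is the study's fold threshold, which reuses the p of the main fit and was not reached. THZ1 within TAC gave 0.22 (95% interval -0.25 to 0.68, adjusted p = 0.486), and the interaction was 0.42 (SE 0.31, adjusted p = 0.411), so a difference between the TAC effects with and without THZ1 was not shown.

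Il1rl1, the ST2 receptor gene, had 55.2, 52.9, 42.4 and 46.0 normalized counts in Sham-Veh and 17.6, 40.8, 23.8 and 49.4 in TAC-Veh. With THZ1 it had 40.4, 45.8, 28.5 and 33.6 after TAC and 35.8, 40.6, 40.1 and 31.4 after sham surgery. TAC-Veh overlapped Sham-Veh and had the widest spread of the 4 groups. The change with TAC was -0.67 (SE 0.26, adjusted p = 0.0424), and its adjusted p stayed under 0.05 in 5 of 10 other settings and 6 of 16 fits without 1 library. Among the 5 is the study's fold threshold, which reuses the p of the main fit and was not reached. The change was -0.42 (adjusted p = 0.144) without TAC-Veh replicate 1, the lowest library. THZ1 in TAC gave 0.26 (adjusted p = 0.478), and in sham all 4 THZ1 libraries lay below all vehicle libraries with -0.40 (SE 0.26, adjusted p = 0.819). That SE shares the spread of the TAC libraries, and over the other settings the adjusted p in sham was 0.148 to 0.880. In that contrast 11.3% of all genes had groups without overlap. Soluble and membrane transcripts were not separated by the gene counts, and of the 40-base windows of Il1rl1 transcripts 0.19% occur in another gene, against none for the other members.

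**Figure D4:**
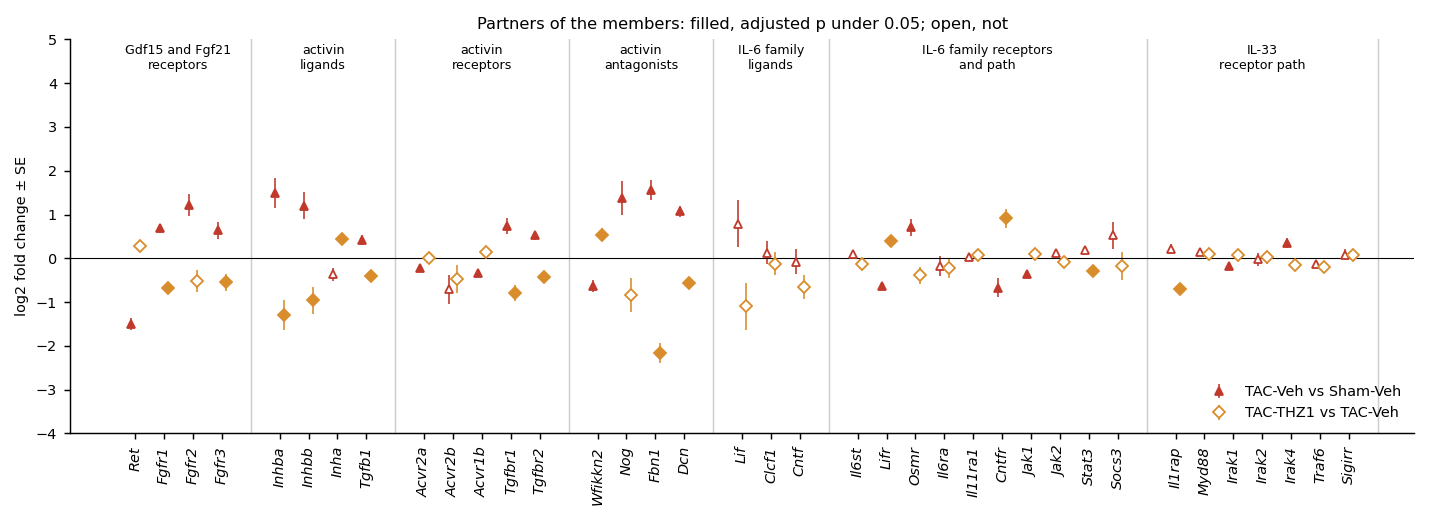
Log2 fold changes (± SE) of tested receptor, ligand, antagonist and signalling genes around the members, for TAC-Veh against Sham-Veh (triangles) and TAC-THZ1 against TAC-Veh (diamonds), filled where the adjusted p was under 0.05. Ret is at -1.50 with TAC, and Fbn1 is at -2.16 with THZ1. The contrasts share the TAC-Veh libraries.

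Of 7 genes tested in the interleukin-33 receptor path, 1 rose and 1 fell with TAC, where 45% of all genes were called. These were Irak4 with 0.35 and Irak1 with -0.18 (adjusted p = 0.0267 and 0.0287). Il1rap, the co-receptor of ST2, had 0.22 with TAC (adjusted p = 0.135) and fell with THZ1 in TAC by 0.70 (SE 0.12, adjusted p = 5.88e-04), from 193 ± 31.6 to 118 ± 12.2 normalized counts. Sigirr, an inhibitory receptor of the family, did not pass in either contrast. Of 7 genes that interleukin-33 is known to induce in immune cells, 5 were under the filter, Il5, Areg, Arg1, and Il13 and Il4 with 1 read each in all 16 libraries. Retnla, an alternatively activated macrophage gene, was at 9.64 ± 6.13 normalized counts in TAC-Veh against 110 ± 19.9 in Sham-Veh (-3.60, SE 0.45, adjusted p = 1.30e-05), and Ccl24 had -0.85 (adjusted p = 0.0680). With THZ1 in TAC Retnla rose by 1.27 (adjusted p = 0.0433), a call that edgeR did not give. Markers of mast cells, type 2 innate lymphoid cells and T cells summed over 8 genes to 242 to 298 normalized counts in Sham-Veh and 118 to 291 in TAC-Veh, and with THZ1 to 144 to 234 after TAC and 186 to 242 after sham surgery, with no marker at 0 throughout a group. Of these markers 5 passed the filter, and Gata3 was the 1 that fell with TAC (-1.94, adjusted p = 5.18e-04). With THZ1 in TAC Gata3 rose by 1.17 (adjusted p = 0.0256) and Cpa3, a mast cell protease, by 0.77 (adjusted p = 0.0490). Their part in the Il1rl1 values was not tested.

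Most other secreted heart proteins on the list rose with TAC. Of 12 tested, 9 rose and 2 fell with TAC, beside 21.4% and 23.6% of all genes. With THZ1 in TAC 5 fell, none rose and 7 did not pass, where 14.2% of all genes fell and 15.1% rose. Timp1, an inhibitor of matrix metalloproteinases, had 976 ± 821 normalized counts in TAC-Veh, against 47.1 ± 21.3 in Sham-Veh and 179 ± 86.1 in TAC-THZ1 (4.11 and -2.19, adjusted p = 5.69e-06 and 0.00291). Spp1 (osteopontin) changed by 4.11 and -2.91, Tnfrsf11b (osteoprotegerin) by 3.96 and -3.00, and Igfbp7 by 2.06 and -1.52, all with an adjusted p under 0.05. A gene could pass the filter through a single group. Tnfrsf11b, under 10 in every sham library, passed only through TAC-Veh, at 63.5 to 302. Chi3l1, with no read in Sham-Veh, met the filter by its TAC-Veh libraries. The rises of Tnfrsf11b and Chi3l1, both among the 9, are thus not independent of the filter. Over all 12 pathway lists, 77 of the 94 genes reported here were tested, and 30 rose and 16 fell with TAC, 7 rose and 22 fell with THZ1 in TAC, and none passed with THZ1 in sham. Of all genes, 45%, 29.4% and 0.0675% were called in these contrasts. No called gene of these lists changed sign under upper quartile scaling, edgeR with TMM or DESeq2. With TAC none of the 46 calls was lost in these settings, and in at least 1 of them calls were lost for Retnla with THZ1 in TAC, for Fbn1 and Chi3l1 between TAC-THZ1 and Sham-THZ1, and for Dcn, Spp1 and Inhba in the interaction. The lists were chosen with earlier results of these libraries known.

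Genes with the most similar pattern over the libraries were looked up for each tested member. The 5 genes most like Gdf15, among 10312 whose mean reached 100 normalized counts, were Col8a1 (r = 0.97), Serpinf1 (0.97), Rtn4 (0.96), Adcy7 (0.96) and Igfbp7 (0.96). After removing group means their r with Gdf15 was 0.59 to 0.64, so that much of the likeness lay between groups. Col8a1, a collagen of vessel and heart matrix, stood at 7882 ± 3643 normalized counts in TAC-Veh and 872 ± 92.6 in Sham-Veh. The nearest gene to Fstl1 was Txndc5, a disulfide isomerase of the endoplasmic reticulum, with r = 0.99, and 0.97 after removing group means. That to Fstl3 was Mvp, the major vault protein (0.99 and 0.91). The nearest to Gdf11 was Cant1 (0.90 and 0.88), to Fst Epha2 (0.88 and 0.85), to Il33 the amino acid transporter gene Slc1a5 (0.93 and 0.84), to Il1rl1 Pura (0.89 and 0.88) and to Mstn Flywch1 (0.70 and 0.81). All are descriptions over 16 libraries that share groups and scaling, with no p.

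Among the members, Gdf15 had r = 0.94 with Fstl1 and 0.94 with Fstl3, and 0.42 and 0.51 after removing group means, and Fstl1 had 0.95 and 0.65 with Fstl3. Ctf1 had r = -0.87 with Fstl1, and -0.76 after removing group means. Activated fibroblast markers moved with these genes. All 5 (Postn, Cthrc1, Comp, Cilp and Thbs4) rose with TAC and fell with THZ1 in TAC, with none at 0 throughout a group. Cthrc1 passed the filter only through its TAC-Veh libraries. The sum of the 5 after TAC was 29456 to 94359 normalized counts with vehicle and 3087 to 8793 with THZ1. After sham surgery it was 1673 to 2531 with vehicle and 1694 to 1972 with THZ1. The highest sum was in TAC-Veh replicate 2, the library with the most Gdf15 and Fstl1, and the lowest of TAC-Veh was in replicate 3, the library with the least. In TAC-THZ1 the highest sum, 8793, was in replicate 3, which had the most Fstl1 of that group, 4497, but the least Gdf15, 20.3. Fibroblast markers in general summed over 6 genes to 21228 to 23469 in Sham-Veh and 41048 to 59915 in TAC-Veh, and cardiomyocyte markers to at least 1120580 in Sham-Veh and at most 846001 in TAC-Veh. In TAC-THZ1 the fibroblast sum was 24491 to 35878 and the cardiomyocyte sum 922745 to 1132070. In Sham-THZ1 these sums were 21112 to 22754 and 1154950 to 1199810. The part of cell composition in the changes of Gdf15, Fstl1, Fstl3 and Ctf1 was not tested.

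**Figure D5:**
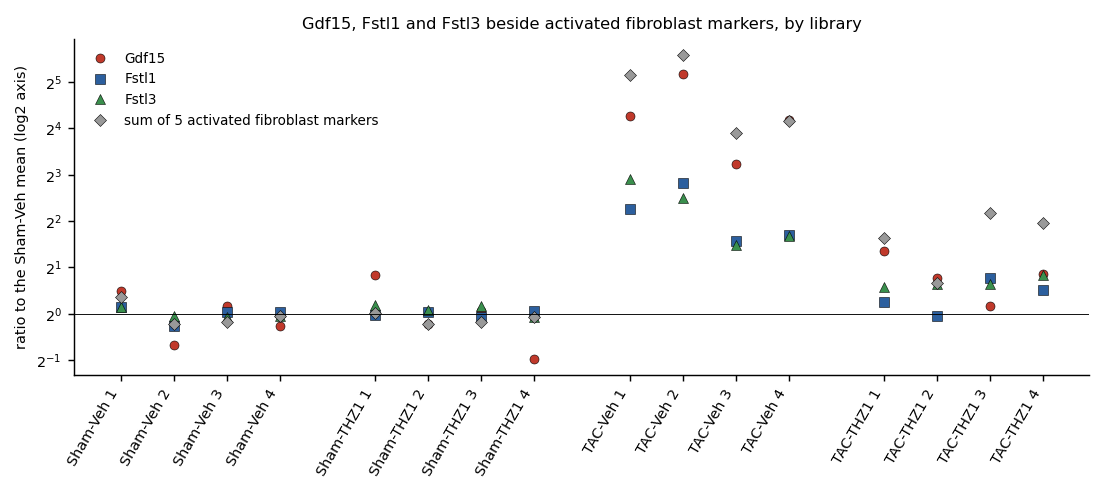
Gdf15, Fstl1, Fstl3 and the summed level of 5 activated fibroblast markers in each library, as a ratio to the Sham-Veh mean on a log2 axis. All 4 series are raised in every TAC-Veh library, each with its 2 highest values in replicates 1 and 2, and in TAC-THZ1 they lie between TAC-Veh and sham or at the level of sham.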

How the data were processed

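Ventricle RNA of 16 mice was sequenced as stranded poly(A) libraries. Per the study's methods and processing notes, the authors aligned reads to mm9 with TopHat2 2.1.1, counted them by strand per GENCODE gene with HTSeq and divided each library by a DESeq2 size factor; the deposited signal values are these normalized counts. Division by 1 step per library returned whole reads for 100% of values (within 0.001 read), with 21.4 to 35.8 M reads and size factors of 0.749 to 1.40 per library. Replicates differed beyond counting error (chi-square per degree of freedom 3.06 to 98.3), and none was merged.

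Tests used limma 3.58.1 in R 4.3.3. Values were taken as log2 after adding a pseudocount of 1, and a mean was fitted for each group over 16 libraries, with an intensity trend, a filter of at least 10 in at least 4 libraries (13331 of 22372 genes) and Benjamini-Hochberg adjustment over these genes; fold changes of low genes are understated on this scale. Alternatives were other pseudocounts, filters and scalings, edgeR 4.0.16 and DESeq2 1.42.0 on recovered reads, array weights, groups fitted alone, a replicate block and leaving out each library. The procedure was tested on simulated counts, with the same dispersion for every gene and group and changes planted in TAC-Veh alone. That test does not show how the fit behaves where groups differ in spread, as they do here. The members and lists were chosen with earlier results of these data known. Text names all 10 members, every ligand and receptor past the filter in each pathway list, up to 4 further genes per list with the smallest adjusted p for TAC under vehicle, 5 genes of most similar pattern for Gdf15 and 1 for each other tested member, chosen by Pearson's r among 10312 genes with a mean of at least 100. Motifs were read from RefSeq promoters (GRCm38.p6) matched to mm9. Figures were drawn with Matplotlib 3.10.9 and tables written with pandas 2.3.3 and NumPy 2.4.6 (Python 3.11.15). Protein sequences were not used here. A gene of the pathway lists is not reported here.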

Additional observations from a re-analysis of the deposited data

Results flagged for a closer look

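The spread within groups of 4 was checked with Dixon's 95% critical value in 39 groups of member values, and 5 held a library apart from the other 3. For normally distributed values chance gives about 1 in 20. That rate need not hold for log2 values of low counts, and counting error was not set apart. Fgf21 in TAC-Veh replicate 3 was 0, and the other 3 libraries held 2.35 to 2.86 normalized counts, in a group with 0 to 4 reads per library. Gdf11 stood at 77.0 in Sham-Veh replicate 4 and at 22.3 in TAC-Veh replicate 1. Fstl3 was 105 in Sham-Veh replicate 1, and Il33 was 139.7 in TAC-Veh replicate 4.

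The THZ1 effect differed between TAC and sham hearts for Fstl1, by -1.72 on the log2 scale (limma interaction, adjusted p = 0.00394), and for Fstl3, by -1.56 (adjusted p = 0.00793).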

How the results depend on the processing

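Over the alternatives, 1159 member values were recomputed. Leaving out 1 library kept direction and call in 663 values, gained a call in 8, lost one in 25 and turned the direction in 24, and the other settings did so in 409, 6, 14 and 10. A library outside the groups of a contrast cannot move its change when left out, so many of the kept directions were fixed in advance. For the Gdf15 contrasts with no test, only direction and size of the change were compared. The adjusted p stayed under 0.05 in all settings run for Fstl1 and Fstl3 with TAC, with THZ1 in TAC and in the interaction, for Ctf1 with TAC, and for Il33 between TAC-THZ1 and Sham-THZ1. The Ctf1 change with TAC, -0.98, did not reach the study's fold threshold.

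Of the 5 members called with TAC under vehicle, 3 were called with edgeR, 3 with array weights and 2 with the study's fold threshold, and 3 to 5 when 1 library was left out, where all genes gave 6003, and 6067, 4962 and 1068 in the first 3 of these. Il33 with TAC had adjusted p from 0.0275 to 0.161 over the other settings and 0.0248 to 0.168 without 1 library, Il1rl1 0.0418 to 0.105 and 0.00612 to 0.144. Ctf1 with THZ1 in TAC had 0.0191 to 0.145 and 0.00547 to 0.121. Between TAC-THZ1 and Sham-THZ1, 1 member was called, Il33. With these groups fitted alone 3 were called, Gdf11 and Fstl3 being added, and with array weights 4, with Fst added as well (3220, 4411 and 5011 of all genes). Without 1 library, 1 to 3 were called. With THZ1 in TAC 2 to 4 were called without 1 library, in the interaction 2 to 4 (4 without TAC-Veh replicate 3), and in sham 0. The cause was not tested.

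Directions turned in values that passed no test. THZ1 in sham gave 0.0070 (pseudocount 4), 0.046 (edgeR), 0.062 (DESeq2) and 0.081 (array weights) for Gdf15, and for Fstl1 -0.0091 (upper quartile scaling), -0.0065 (edgeR) and -0.0021 (DESeq2). Between TAC-THZ1 and Sham-THZ1, Mstn had 0.077 with edgeR and 0.083 with DESeq2, and Il1rl1 0.023 with upper quartile scaling. Without 1 library, THZ1 in sham ranged from -0.29 to 0.28 for Gdf15, -0.078 to 0.055 for Fstl1, -0.042 to 0.20 for Gdf11 and -0.079 to 0.37 for Mstn. THZ1 in TAC ranged from -0.33 to 0.067 for Gdf11 and -0.65 to 0.13 for Mstn, and the Gdf11 interaction from -0.35 to 0.040. TAC-THZ1 against Sham-THZ1 ranged from -0.29 to 0.030 for Ctf1, -0.12 to 0.11 for Il1rl1 and -0.49 to 0.30 for Mstn.

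The labels number replicates 1 to 4 in each group, but same-numbered libraries did not deviate together (r of deviations from group means -0.43 to 0.16 over 24 pairs, 2 above 0.1). With the replicate block the members called were 5, 3, 0, 1 and 2 for TAC, THZ1 in TAC, THZ1 in sham, TAC-THZ1 against Sham-THZ1 and the interaction, as without it. Over all genes THZ1 in sham called 9, and 465 with the groups fitted alone, 513 with array weights and 33 with DESeq2, and THZ1 in TAC called 3918, and 1399 and 2412 in the first of these settings. Reads per library limit Fgf21, Mstn and Fst, and 4 mice a group limit the rest.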
